A study of Mus musculus with 12 samples.

Results

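Fish oil sham and purified sham libraries were compared across all expressed genes, 3 libraries against 3. These 6 libraries of the 12 in the series were grouped by their labels, and the comparison and the gene lists were chosen with earlier results of these data known. All libraries hold total RNA of wild-type C57BL/6J mouse brain, described by the submitters as injured cortex and taken 6 months after injury or sham handling. Purified sham mice ate a purified control diet throughout. Fish oil sham mice ate, in cycles, a diet that was high in fat and held added fish oil, so fat content and fish oil differ together and cannot be told apart. The other 6 libraries, 3 per diet, come from mice given repeated closed-head impacts below the severity of mild traumatic brain injury, and serve here as separate libraries for the same diet contrast. Of 53379 genes in the table, 19252 had enough counts to be tested. The labels do not tie libraries to separate animals, so the spread that the p-values measure is that among libraries and may be technical.

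Brain capillaries are lined by endothelial cells that form the blood-brain barrier through tight junctions, few vesicles and a set of nutrient and efflux transporters, and pericytes wrap the same vessels. Omega-3 fatty acids such as docosahexaenoic acid, abundant in fish oil, enter the brain across this endothelium and are built into membrane phospholipids. In liver, polyunsaturated fatty acids are known to restrain the sterol-regulated transcription factors that drive lipid synthesis. The molecular clock, a loop in which activators switch on their own repressors, and the immediate early genes, switched on by neuronal firing within minutes, both vary with the hour and the state of the animal at which tissue is taken. The labels used here do not give that hour.

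No gene passed the test of fish oil against purified diet in sham libraries. By edgeR 0 of 19252 genes had an adjusted p under 0.05, the lowest being 0.686 (percent called 0), limma-voom also called 0 and DESeq2 called 17. An unadjusted p under 0.05 was reached by 710 genes, where 963 would be expected by chance. Of all tested genes 1.95% were lower on fish oil at that level and 1.74% were higher. These values use a spread shared by all 12 libraries, injured ones included. With edgeR on the 6 sham libraries alone, 1427 of 18292 genes reached that level, and 0 had an adjusted p under 0.05. The count of 1427 is more than the 963 expected by chance from the larger set of 19252 genes. In 7.45% of all tested genes every fish oil sham library lay below every purified sham library, and in 6.31% every one lay above. The median log2 fold change of all tested genes was 0.006. With 1 sham library left out at a time the count of 710 ran from 289 (without fish oil sham replicate 2) to 1362 (without fish oil sham replicate 3), and was 389 without purified sham replicate 3 and 471 without purified sham replicate 2. The calls by DESeq2 were 16 lower genes and 1 higher gene, and 15 of the 17 are described below: Adgrf5, Slco1a4, Ptprb, Ly6c1, Ly6a, Flt1, Tek, Slc2a1, Zfp366, Lcn2, Per2, Ptgs2, Plin4, Paqr5 and, as the higher one, Mctp2. What follows gives values and counts of genes below or above 0, and none of the genes is called changed.

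The sham libraries differed in depth and in the tissue they carried. Total counts ran from 47467390 to 70754854. Cortical identity was present in all 6: the 20 general neuron markers summed to 14493 to 16323 CPM (counts scaled to a fixed library total) and the 20 cortical layer markers to 1200 to 1686 CPM, with no tested member at 0 in every library. Striatal transcripts set 1 library of each diet apart. The dopamine receptor gene Drd2 reached 72.2 CPM in replicate 2 of fish oil sham and 27.4 CPM in replicate 4 of purified sham, against 0.331 to 1.68 CPM in the other 4. The 18 striatal markers summed to 4061 and 1868 CPM in those 2 libraries and to 647 to 735 CPM elsewhere. The 7 olfactory bulb markers were all above 0, and summed to 71.6, 16.7 and 50.9 CPM in fish oil and 19.3, 13.7 and 19.4 CPM in purified sham replicates 2, 3 and 4. Fish oil replicates 2 and 4, where these markers were high, had the lowest summed levels of the endothelial and immediate early genes described below. Purified sham replicate 3 carried choroid plexus transcripts, with Ttr at 434 CPM against 17.3 to 50.1 CPM in the other sham libraries. Meningeal fibroblast genes were above 0 in 18 of 18, with summed levels of 803 to 1439 CPM on fish oil and 604 to 877 CPM on the purified diet. Microglial genes were above 0 in 20 of 20, at 565 to 763 CPM against 479 to 676 CPM, with P2ry12 at a log2 fold change of 0.34 ± 0.16 (SE) and Tmem119 at 0.53 ± 0.27. No microglial gene had separate libraries. The part of these other cells in the results below was not tested, except where a value without the library is given. In bulk tissue, fewer cells of a type and less RNA per cell cannot be told apart. Within each diet the library names of replicates 3 and 4 begin with the same number, which is not shared between the diets, so whatever that number stands for cannot be told apart from diet.

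The 4 promoter windows printed here belong to clock genes whose values are given later and show the letters searched for in all promoters. They are the 250 bases before the transcription start on the gene's strand, from RefSeq on GRCm38.p6, written 5′ to 3′, with the E-box CACGTG or the D-box TTANGTAA in capitals. The first of these elements is bound by the clock activators and the other by output factors of the PAR bZIP family.
Per1 (chr11:69098699-69098948, plus strand, 1 of 2 RefSeq starts): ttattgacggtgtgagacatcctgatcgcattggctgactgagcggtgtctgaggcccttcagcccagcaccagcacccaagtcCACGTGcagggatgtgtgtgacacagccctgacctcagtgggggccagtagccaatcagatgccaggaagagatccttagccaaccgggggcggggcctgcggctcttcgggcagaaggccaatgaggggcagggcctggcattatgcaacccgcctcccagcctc
Cry1 (chr10:85185055-85185304, minus strand): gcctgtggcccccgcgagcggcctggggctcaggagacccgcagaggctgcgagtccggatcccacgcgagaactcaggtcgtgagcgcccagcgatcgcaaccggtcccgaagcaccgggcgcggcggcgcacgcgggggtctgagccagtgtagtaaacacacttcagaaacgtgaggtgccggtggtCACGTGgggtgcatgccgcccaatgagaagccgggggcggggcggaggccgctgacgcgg
Ciart (chr3:95882229-95882478, minus strand): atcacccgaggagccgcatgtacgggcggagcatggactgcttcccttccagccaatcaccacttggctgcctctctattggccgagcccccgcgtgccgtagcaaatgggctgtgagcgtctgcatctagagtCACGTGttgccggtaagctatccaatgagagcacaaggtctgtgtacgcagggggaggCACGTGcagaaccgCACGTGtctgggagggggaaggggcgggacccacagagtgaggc
Per3 (chr4:151044666-151044915, minus strand): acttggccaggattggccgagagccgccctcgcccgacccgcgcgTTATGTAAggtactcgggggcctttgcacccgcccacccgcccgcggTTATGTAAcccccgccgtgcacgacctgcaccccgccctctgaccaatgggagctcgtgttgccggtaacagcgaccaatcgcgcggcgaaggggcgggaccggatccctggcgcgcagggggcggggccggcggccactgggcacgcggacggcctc
Per1 and Cry1 hold 1 E-box each, Ciart holds 3 and Per3 holds 2 D-boxes.

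Genes of endothelial identity were lower throughout the list. All 30 of 30 tested members were below 0 in fish oil sham libraries. Their median was -0.77 (log2), equal to -41.4%, beside 48.9% of all tested genes below 0. In 19 of 30 every fish oil library lay below every purified library, beside 7.45% of all genes, and 19 had an unadjusted p under 0.05, beside 1.95%. Their adjusted p-values by edgeR were 0.686 or more. The summed level of the 30 genes was 521, 617 and 648 CPM in purified sham and 266, 436 and 325 CPM in fish oil sham libraries, replicates 2, 3 and 4 in that order, as in all lists of values here.

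Slco1a4 (ENSMUSG00000030237.14, chr6:141805440-141856199, minus strand), an organic anion transporter of the barrier, stood at 47.7, 49.9 and 61.5 CPM in purified and 25.8, 30.1 and 27.7 CPM in fish oil sham libraries. Adgrf5 (ENSMUSG00000056492.6, chr17:43360451-43459557, plus strand), an adhesion receptor of capillary endothelium, stood at 43.2, 42.1 and 48.4 against 23.0, 24.6 and 27.3 CPM. The lowest purified library was well above the highest fish oil library in both genes, and the log2 fold changes were -0.93 ± 0.17 (SE) and -0.84 ± 0.13 (edgeR adjusted p = 0.686 for both). Ptprb, the endothelial tyrosine phosphatase that restrains the receptor Tek, stood at 35.6, 41.8 and 46.2 against 25.4, 26.0 and 27.0 CPM. Flt1, a receptor of vascular endothelial growth factor, stood at 44.4, 56.1 and 57.7 against 23.9, 34.3 and 34.5 CPM. Tek itself, the angiopoietin receptor, stood at 11.7, 14.5 and 17.5 against 8.18, 8.93 and 8.10 CPM. None of these 3 overlapped between the diets.

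Other surface genes had the same order. Ly6c1 stood at 17.04, 21.5 and 27.7 against 8.44, 10.3 and 9.57 CPM, and Ly6a at 14.2, 20.6 and 27.0 against 7.89, 9.72 and 7.55 CPM. Both encode small membrane-anchored proteins of brain endothelium. Adgrl4, another endothelial adhesion receptor, stood at 18.8, 22.1 and 26.0 against 8.73, 11.3 and 12.03 CPM. Abcb1a, the drug efflux pump of the barrier, stood at 25.3, 34.6 and 36.9 against 18.5, 22.7 and 22.7 CPM, a log2 fold change of -0.60 ± 0.18. The platelet-binding factor gene Vwf had a less even pattern, at 8.98, 20.8 and 33.4 CPM in purified sham libraries and 8.06, 8.20 and 7.49 CPM in fish oil sham libraries. Its purified replicate 2 lay close to the fish oil libraries, so its log2 fold change of -1.41 ± 0.36 rests on purified replicates 3 and 4.

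Pan-endothelial junction and surface genes were also below 0. Pecam1 stood at 15.5, 16.2 and 20.5 against 11.7, 13.1 and 10.99 CPM, and Emcn at 5.42, 4.00 and 5.65 against 2.93, 3.42 and 2.49 CPM, both without overlap. Cdh5, the adherens junction cadherin of endothelium, had a log2 fold change of -0.45 ± 0.20, and Cldn5, its main tight junction claudin, one of -0.45 ± 0.29 with overlapping libraries. Eng (-0.61), Esam (-0.63), Tie1 (-0.39) and Podxl (-0.78) lay in the same range on the log2 scale. Kdr, the main signalling receptor for vascular endothelial growth factor, stood at -0.20 ± 0.15, Ramp2 at -0.17 ± 0.19 and Egfl7 at -0.10 ± 0.30, the 3 smallest differences of the list. Endothelial transcription factor genes were low in level and lower on fish oil, with Erg at 5.26, 7.02 and 5.88 against 2.74, 4.06 and 2.68 CPM and Foxq1 at 1.49, 0.936 and 0.963 against 0.418, 0.620 and 0.484 CPM. Sox17 (-1.04), Sox18 (-0.96) and Fli1 (-0.47) were also below 0. Cd34 was the member with the widest spread, at 130, 140 and 103 against 20.2, 137 and 46.8 CPM, so its fish oil libraries overlapped the purified ones. Icam2, Nos3 and Robo4 completed the list at -0.38, -0.42 and -0.94.

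**Figure D1:**
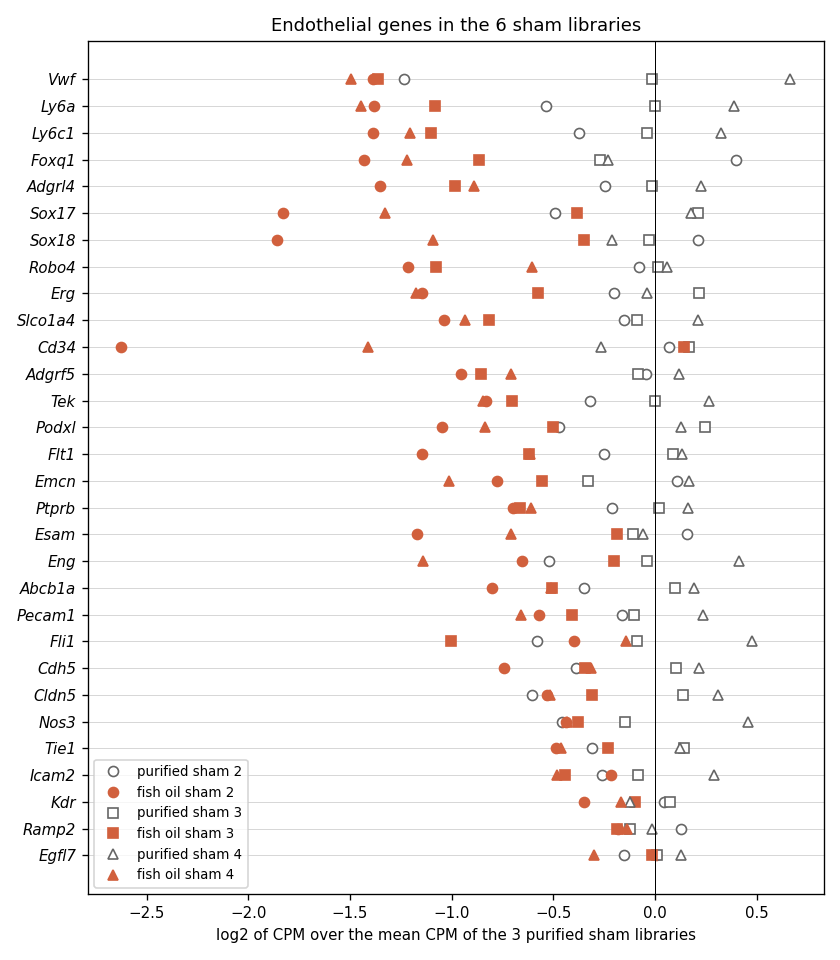
Each of the 30 endothelial genes is plotted on a line of its own, with 1 symbol per sham library, as the log2 of its CPM over the mean CPM of the 3 purified sham libraries (open symbols purified, filled symbols fish oil, shapes replicates 2 to 4, genes ordered by fitted fold change). Filled symbols lie to the left of all open symbols for 19 of the 30 genes, and Cd34 spans the widest range.

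The same order was computed without the libraries that carry striatal transcripts. Without fish oil sham replicate 2 and purified sham replicate 4 together, an alternative chosen after seeing the data, all 30 endothelial genes were below 0. The median was -0.55, and the count at an unadjusted p under 0.05 was 9 in place of 19. Over all tested genes, both directions together, that count was 383 of 19675 in place of 710 of 19252. With 1 sham library left out at a time the median ran from -0.86 to -0.62, and all 30 were below 0 each time. With striatal and choroid plexus scores as covariates it was -0.74. Lower endothelial values also appeared between the diets in the injured libraries, which share no library with the sham comparison. There 28 of 30 genes were below 0, with a median of -0.43, beside 0.006 for all tested genes. The injured libraries also differed in the tissue they carried. Choroid plexus markers summed to 315, 278 and 255 CPM on the purified diet and 688, 4371 and 4288 CPM on fish oil. Olfactory bulb markers summed to 22.4, 1090 and 88.8 against 55.6, 70.6 and 11.1 CPM. By edgeR, 2063 genes had an unadjusted p under 0.05 in this contrast, and 409 with the tissue scores as covariates. The part of this tissue in the endothelial values was not tested. Every fish oil injured library lay below every purified injured library in 13 of 30, beside 5.98% of all genes in that direction and 5.6% in the other. In 8 of the 30 this separation held in sham and injured libraries alike. The share of all genes separated in both is not given here, so that count has no background beside it. Robo4 stood at -0.94 in sham and -0.96 in injured libraries and Pecam1 at -0.54 and -0.57 (log2). Ly6c1 stood at -1.23 and -0.27, and Ly6a at -1.29 and -0.24. The difference between sham and injured libraries had an unadjusted p under 0.05 in 4 of the 30, beside 5.76% of all genes, and an adjusted p by edgeR of 0.82 for Ly6c1. Purified sham had the highest group mean of the 4 groups in 26 of 30 genes and fish oil injured the lowest in 21.

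Barrier transporters were lower in part. Some vascular lists share members, such as Cd34 (endothelial and junction lists) and Foxq1 (endothelial and Wnt lists), so their counts are not separate results. Of 25 tested, 19 were below 0, the median being -0.14 (log2), and 7 had separate libraries, all in the lower direction, beside 7.45% of all genes. The median was -0.07 without fish oil sham replicate 2. Slc2a1 (chr4:119108711-119137983, plus strand), the glucose transporter of the barrier, stood at 49.6, 48.3 and 51.5 against 33.3, 38.8 and 35.8 CPM. Its log2 fold change of -0.47 ± 0.09 (edgeR adjusted p = 0.881), with a narrow spread in each diet, compares with -0.32 in injured libraries. Slco1c1, which carries thyroid hormone, stood at 53.0, 56.4 and 61.6 against 36.7, 40.4 and 44.1 CPM in sham libraries and was higher on fish oil in injured libraries, at 0.28 (log2). The transferrin receptor gene Tfrc stood at 190, 186 and 221 against 152, 168 and 144 CPM. The efflux pump gene Abcc4 stood at -0.42 ± 0.18, Abcg2 at -0.20 ± 0.18 and the insulin receptor gene Insr at -0.12 ± 0.11. Slc38a5, an amino acid transporter of venous endothelium, stood at 1.37, 3.28 and 4.63 against 1.29, 0.902 and 0.856 CPM. Mfsd2a, the carrier of docosahexaenoic acid in lysophospholipid form, stood at 9.79, 9.88 and 13.3 against 9.20, 9.03 and 11.8 CPM. Its difference of -0.14 ± 0.21 was within the spread between libraries, and its sign turned without purified sham replicate 4 (0.03).

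Arterial and venous genes did not share 1 direction, with 10 of 18 below 0. Car4, a capillary carbonic anhydrase, stood at 32.7, 36.0 and 31.99 against 11.3, 27.4 and 19.6 CPM, and the arterial semaphorin gene Sema3g at 3.64, 3.00 and 4.28 against 2.62, 2.20 and 2.00 CPM. Lcn2, an acute-phase iron carrier of reactive vessels and glia, stood at 0.0992, 3.02 and 3.48 CPM against 0.152, 0.0563 and 0.161 CPM. As with Vwf and Slc38a5, purified replicates 3 and 4 were high and purified replicate 2 lay with the fish oil libraries. Of 20 junction and glycocalyx genes 13 were below 0, among them the tight junction gene Ocln at 8.05, 9.003 and 8.23 against 5.13, 6.92 and 6.55 CPM and the catenin gene Ctnnd1 at -0.35 ± 0.16, while the scaffold gene Tjp1 stood at -0.17 ± 0.11.

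Vascular growth factor genes had no common direction. Of 22 genes of vascular endothelial growth factor and angiopoietin signalling, 10 were below 0 and 12 above. In 4 the libraries were separate and lower on fish oil, beside 7.45% of all genes, and in 2 separate and higher, beside 6.31%. Angpt1, the ligand of Tek, stood at 2.94, 2.60 and 5.69 against 10.3, 2.96 and 29.0 CPM, so fish oil replicates 2 and 4 were high and replicate 3 was not. Pgf and Vegfb, ligands of Flt1, stood at 0.64 ± 0.34 and 0.21 ± 0.12, with every fish oil library above every purified library in both. Wnt7b, a ligand that maintains barrier properties, stood at 12.3, 9.64 and 9.95 against 16.4, 13.9 and 28.1 CPM. Of the 20 Wnt pathway genes 12 were below 0, and of 16 Notch pathway genes 8.

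Mural genes had no common direction. Of 19 tested pericyte and smooth muscle genes 9 were below 0, with a median of 0.01. The 5 members with separate libraries were all lower on fish oil, beside 7.45% of all genes, and all are used as pericyte markers. The other pericyte markers on the list overlapped between the diets, and 10 of the 19 members were above 0. Rgs5, a regulator of G-protein signalling, stood at 104, 109 and 118 against 51.4, 85.7 and 66.7 CPM, a log2 fold change of -0.70 ± 0.20. Abcc9, a potassium channel subunit, stood at 13.1, 14.9 and 16.2 against 6.84, 11.1 and 9.57 CPM, and Atp13a5 at 11.7, 13.2 and 13.9 against 8.02, 9.59 and 11.01 CPM. Kcnj8, the channel partner of Abcc9, stood at -0.43 ± 0.24 and Higd1b at -0.30 ± 0.25. In injured libraries Rgs5 stood at -0.19 and Abcc9 at 0.05. Of 20 vascular basement membrane genes 13 were below 0 and none had separate libraries, with the collagen gene Col4a1 at -0.14 ± 0.17 and the laminin gene Lamb1 at 0.90 ± 0.41.

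The 30 genes with the smallest unadjusted p, among those of at least 1 CPM, included endothelial genes described above and others. Of the 30, 27 were lower on fish oil and 3 higher, and 29 had separate libraries, as a small p favours. Endothelial list members made up 10 of them, with the sham values already given, so they are not a second result. Ctla2a and Zfp366, at 1.70, 1.55 and 3.46 against 0.875, 0.845 and 0.936 CPM and at 4.40, 5.53 and 7.02 against 2.59, 2.31 and 3.47 CPM, are further genes with separate libraries in sham and injured mice alike. Prom1, a membrane-protrusion protein, stood at 12.6, 14.8 and 14.7 against 6.62, 9.73 and 6.85 CPM, and Ddb2, a DNA damage sensor, at 19.9, 22.1 and 19.0 against 11.4, 15.7 and 13.7 CPM. In the injured libraries 22 of the 30 had the same sign as in sham libraries, 21 lower and 1 higher.

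Others of the 30 stood near 0 or had the opposite sign in injured libraries. Paqr5, a membrane progestin receptor, stood at 3.44, 3.83 and 3.85 against 1.81, 1.54 and 1.58 CPM in sham libraries, and its log2 fold change of -1.17 ± 0.25 compares with -0.05 in injured libraries. Frmd6 stood at 76.6, 80.5 and 70.3 against 28.0, 45.9 and 41.0 CPM, with 0.08 in injured libraries. Ankrd33b stood at 178.8, 208.1 and 163.6 against 65.6, 131.7 and 109.4 CPM, and Sntb2, a syntrophin, at 57.7, 75.0 and 57.8 against 39.8, 44.6 and 40.3 CPM, with 0.20 in injured libraries for both. Slc16a4, of the monocarboxylate transporter family, stood at -1.33 and 0.15. The 3 higher genes were Mctp2, at 1.47, 1.02 and 1.32 against 2.59, 2.73 and 3.39 CPM, Aldh1b1, a mitochondrial aldehyde dehydrogenase, at 3.31, 3.24 and 3.65 against 11.6, 4.79 and 6.199 CPM, and Ddah2, at 1.39, 1.00 and 1.62 against 3.19, 2.79 and 2.94 CPM. The difference between sham and injured libraries had an unadjusted p under 0.05 in 15 of the 30, but since they were chosen on the sham libraries that count is a description.

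**Figure D2:**
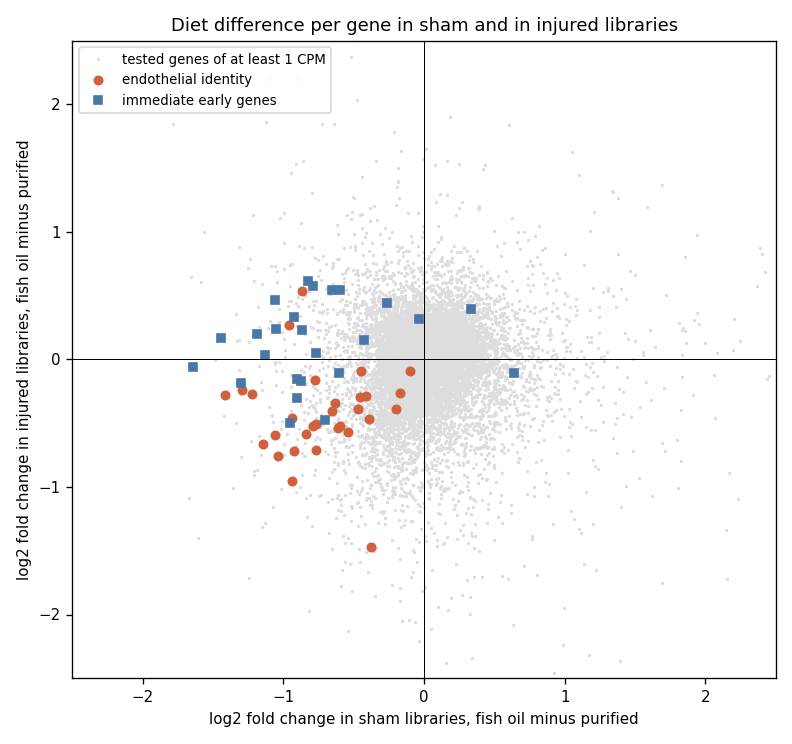
Each point is 1 gene, with its log2 fold change (fish oil minus purified) in sham libraries on the horizontal axis and in injured libraries on the vertical axis. Grey points are 14541 tested genes with a mean of at least 1 CPM in sham libraries, 45 of which lie outside the axes. The endothelial and immediate early genes are drawn over them whatever their level. Of the endothelial genes 28 of 30 lie below 0 on both axes, and 23 of 25 immediate early genes lie to the left of 0, on both sides of the horizontal line.

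Immediate early genes were mostly lower in fish oil sham libraries. Of 25 tested, 23 were below 0, the median being -0.87 (log2), 15 had separate libraries, all lower (beside 7.45% of all genes), and 12 had an unadjusted p under 0.05 (beside 1.95%). That last count was 6 without fish oil sham replicate 2, 6 without replicate 4 and 20 without replicate 3. Over all tested genes, both directions together, the counts in these settings were 289 of 19828, 607 of 19771 and 1362 of 19784, in place of 710 of 19252. Ptgs2 (chr1:150100031-150108227, plus strand), which encodes the inducible cyclooxygenase of prostaglandin synthesis and is induced by neuronal activity, stood at 36.6, 54.0 and 43.0 against 14.3, 24.8 and 10.03 CPM, a log2 fold change of -1.44 ± 0.31 (edgeR adjusted p = 0.934). The transcription factor gene Egr3 stood at 235, 211 and 171 against 81.0, 134 and 110 CPM, and Egr1 at 557, 560 and 451 against 172, 390 and 194 CPM. Fish oil replicate 3 was the highest of its group in all 3 genes.

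Synaptic members showed the same order. Homer1, a postsynaptic scaffold, stood at 318, 398 and 363 against 185, 214 and 223 CPM. Arc, which acts in removing glutamate receptors from synapses, stood at 371, 279 and 270 against 67.5, 251 and 123 CPM. The neurotrophin gene Bdnf stood at 49.2, 52.5 and 44.4 against 25.1, 34.4 and 33.3 CPM, and Dusp6, a phosphatase that dampens growth factor signalling, at 109, 108 and 93.0 against 35.7, 85.8 and 48.2 CPM. Fos itself stood at 111, 85.9 and 63.4 against 33.8, 53.7 and 31.2 CPM, and the neuron-specific factor gene Npas4 at 64.2, 87.0 and 48.3 against 18.4, 44.4 and 18.2 CPM. Egr2 (-1.64), Egr4 (-1.18), Fosb (-0.95), Dusp5 (-0.87), Ier5 (-0.83) and Fosl2 (-0.71) also had separate libraries. Nptx2 stood at -0.43 ± 0.19 with overlap. Jun was 1 of 2 members above 0, at 0.64 ± 0.31.

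Among the 4 groups it was the purified sham group that stood high. Its mean was the highest of the 4 in 19 of 25 immediate early genes, and the fish oil sham mean was the lowest in 15. The summed level of the 25 genes was 2787, 2565 and 2168 CPM in purified sham, 996, 1836 and 1281 in fish oil sham, 1307, 1983 and 1467 in purified injured and 2718, 1605 and 1226 in fish oil injured libraries. Fish oil injured replicate 2 thus lay with the purified sham libraries. Between the diets in injured libraries 9 of 25 genes were below 0, with a median of 0.17 (log2), and none had separate libraries in the lower direction. The difference between sham and injured libraries had an unadjusted p under 0.05 in 9 of 25, beside 5.76% of all genes, and an adjusted p of 0.82 by edgeR for Homer1, whose log2 fold changes were -0.79 in sham and 0.58 in injured libraries. Without fish oil sham replicate 2 the median in sham libraries was -0.62, and without replicate 3 it was -1.20. Without both libraries that carry striatal transcripts 21 of 25 were below 0, with a median of -0.75. The cortical layer markers summed to 1541, 1686 and 1486 CPM in purified and 1200, 1605 and 1258 CPM in fish oil sham libraries, so the 2 fish oil libraries with the lowest immediate early gene and endothelial sums were also lowest for cortical layer markers. The part of this in either result was not tested.

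Clock repressors and outputs were mostly lower. Of 19 tested, 17 were below 0, the median being -0.21 (log2), and 7 had separate libraries, all lower, beside 7.45% of all genes. By edgeR 7 had an unadjusted p under 0.05. With 1 sham library left out the median ran from -0.30 to -0.16. The count of 7 became 2 without purified sham replicate 2, 2 without fish oil sham replicate 2 and 8 without fish oil sham replicate 3. Over all tested genes, both directions together, these settings gave 471, 289 and 1362 in place of 710. Per2, the repressor with the tightest separation, stood at 53.0, 52.8 and 51.4 against 28.2, 28.5 and 33.1 CPM. Bhlhe40, a repressor also induced by activity, stood at 230, 214 and 206 against 108, 159 and 121 CPM. Per1, whose window holds 1 E-box, stood at 122, 100 and 98.3 against 65.9, 81.6 and 72.3 CPM. Nr1d2, the nuclear receptor that represses Arntl, stood at 254, 210 and 206 against 158, 187 and 158 CPM.

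Genes with clock elements did not all differ between the diets. Cry1, with 1 E-box, stood at 25.9, 22.5 and 23.4 against 18.0, 20.1 and 16.6 CPM, and Per3, with D-boxes, at 72.2, 66.4 and 54.1 against 35.9, 53.4 and 36.6 CPM. Ciart, with 3 E-boxes, stood at 42.6, 15.8 and 20.6 against 17.6, 20.7 and 13.1 CPM and overlapped, its difference resting on purified replicate 2. Cry2 stood at -0.19 ± 0.08, Nr1d1 at -0.25 ± 0.17 and Hlf at -0.45 ± 0.31. The activators Arntl, Clock and Rora stood at -0.19 ± 0.15, -0.15 ± 0.12 and -0.33 ± 0.19 in sham libraries. Of the 6 activators tested 5 were below 0 and 1 above, with 1 (Rora) separate and 0 at an unadjusted p under 0.05. In injured libraries the repressor list had a median of -0.09 with 13 of 19 below 0 and none separate, and the activators one of 0.44 with 0 of 6 below 0. On both strands of the 300-base RefSeq windows (250 before and 50 after the start) the E-box was found in 5 of 15 matched repressor and output genes, the D-box in 1 and the cAMP response element TGACGTCA in 1. Over all 27025 symbols with a window the shares were 8.09%, 2.72% and 2.03%. In immediate early genes, 20 of 25 matched, with an E-box in 3, a D-box in 1 and a cAMP response element in 2. The E-box and the cAMP response element share the letters ACGT, but a match to one is never a match to the other. A match is a description of the letters only.

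**Figure D3:**
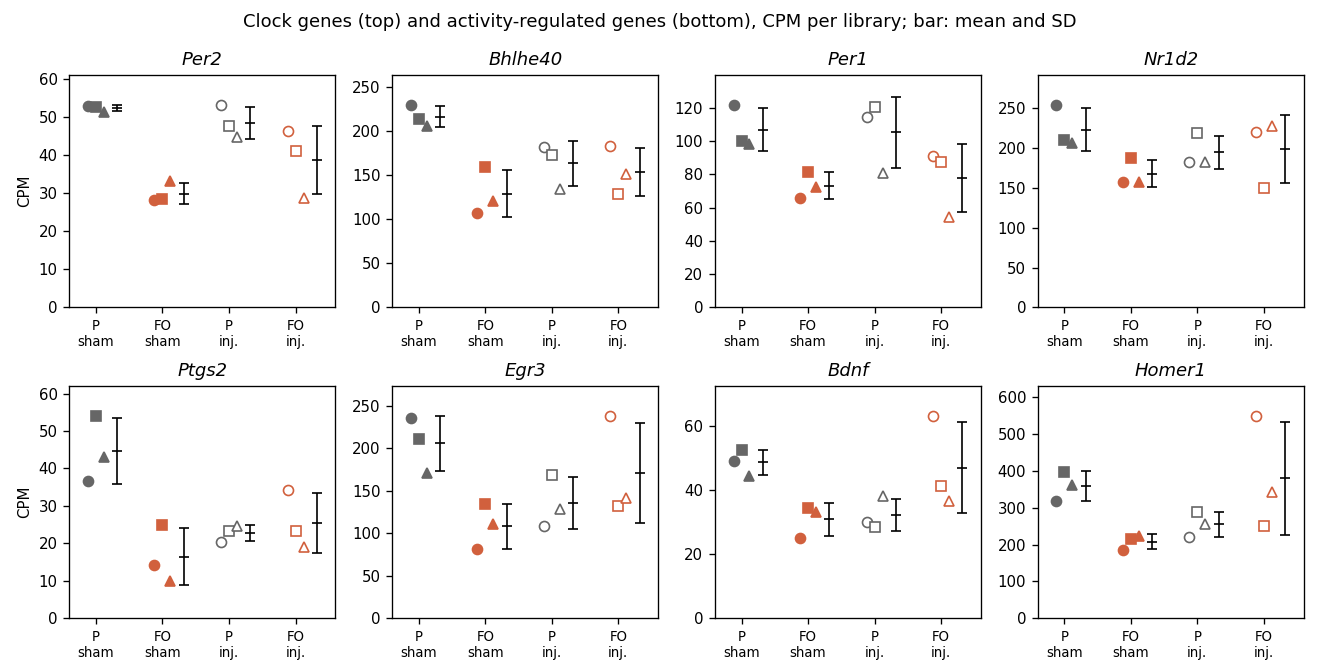
CPM is plotted for 4 clock genes (top) and 4 activity-regulated genes (bottom) in each library of the 4 groups, with shapes for replicates 2 to 4 and a bar for the mean and SD (P purified, FO fish oil, filled symbols sham, open symbols injured). In sham libraries the 2 diets do not overlap in any of the 8 genes, and the injured groups overlap in all 8.

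Glucocorticoid-induced genes were mixed, with 13 of 18 below 0 and a median of -0.10. The median was -0.24 without purified sham replicate 3 and 0.005, with 9 of 18 below 0, without purified sham replicate 4. Plin4 (chr17:56100591-56109803, minus strand), a lipid droplet coat protein gene, was the member with the smallest p, at 5.47, 4.92 and 9.21 against 2.83, 1.94 and 1.86 CPM. The steroid-responsive transcription factor genes Klf9 and Zbtb16 stood at -0.33 ± 0.15 and -0.88 ± 0.43, and Hif3a at -0.58 ± 0.24.

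Genes of sterol and fatty acid synthesis lay above 0 by small amounts. Of 20 cholesterol synthesis genes 19 were above 0, the median being 0.23 (log2), equal to 16.9%, and 6 had every fish oil library above every purified library, beside 6.31% of all genes. Dhcr7, which makes cholesterol from its last precursor, stood at 28.0, 25.2 and 26.7 against 36.5, 31.1 and 38.0 CPM. Nsdhl, a sterol demethylation enzyme, stood at 25.0, 18.5 and 23.4 against 31.1, 25.6 and 32.1 CPM, and Mvd, of the mevalonate pathway, at 10.2, 7.002 and 12.6 against 14.0, 13.6 and 15.2 CPM. Sqle stood at 0.34 ± 0.19, with overlap, and Srebf2, the controlling transcription factor, at 0.15 ± 0.14 without overlap. In injured libraries 13 of 20 were above 0, with a median of 0.08.

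Of 20 genes of fatty acid synthesis and desaturation 16 were above 0, with a median of 0.18. In 6 the libraries were separate, all higher on fish oil, beside 6.31% of all genes. Scd2, the main desaturase of brain, stood at 1432, 1182 and 1641 against 2105, 1709 and 1809 CPM. Scd1, its paralog, stood at 225, 139 and 257 against 356, 266 and 319 CPM, and reads shared between such close paralogs could be assigned to either. Srebf1, the transcription factor of lipogenesis, stood at 17.6, 17.4 and 22.7 against 30.9, 28.7 and 22.9 CPM. Its fish oil replicate 4 was barely above the highest purified library, and the log2 fold change was 0.51 ± 0.19 (edgeR adjusted p = 0.934). Fads2, the first desaturase of polyunsaturated fatty acid synthesis, stood at 72.8, 59.6 and 74.8 against 108, 77.3 and 102 CPM, while Fads1, its partner, stood at 0.10 ± 0.10. Fasn, the fatty acid synthase, stood at 148, 184 and 193 against 246, 202 and 216 CPM. In injured libraries Srebf1 stood at -0.06 and Fads2 at 0.09, and the list median was 0.04.

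Oligodendrocytes are a large source of these lipids, and their markers varied within each diet. All 16 mature oligodendrocyte genes were above 0, with a median of 0.18, but their summed level ran from 2086 to 6101 CPM in purified sham and from 3070 to 5695 CPM in fish oil sham libraries. Purified sham replicate 3 was the lowest library for these markers and also for Scd1, Scd2, Fads2, Nsdhl and Mvd. Without it the oligodendrocyte median was -0.12, the cholesterol median was 0.17 and the fatty acid synthesis median was 0.14. Whether these markers account for the lipid genes was not tested.

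**Figure D4:**
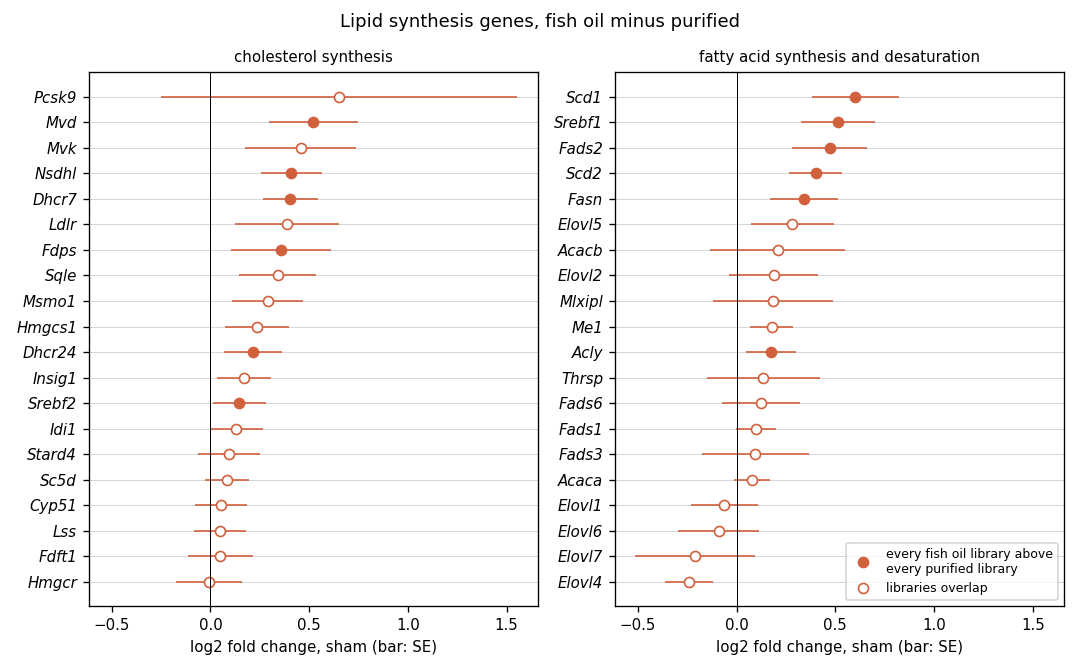
The log2 fold change (fish oil minus purified, sham libraries) of each gene of cholesterol synthesis (left) and of fatty acid synthesis and desaturation (right) is shown with its SE, and filled points, 6 in each panel, mark genes with every fish oil library above every purified library. On the left 19 of 20 points lie above 0, and on the right 16 of 20.

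Fatty acid oxidation and peroxisome proliferator targets were above 0 in 19 of 23, with a median of 0.13 (0.20 without purified sham replicate 4). Cpt2, the inner membrane carnitine transferase, stood at 4.07, 2.79 and 4.42 against 6.10, 5.31 and 5.17 CPM, and Acot2, a mitochondrial thioesterase, at 2.78, 2.68 and 3.07 against 3.92, 3.96 and 4.79 CPM. In genes of omega-3 uptake and phospholipid remodelling 9 of 18 were above 0. Lpcat3, which places polyunsaturated chains into phospholipids, stood at 12.8, 10.3 and 12.5 against 15.2, 13.3 and 14.4 CPM. Fabp7, a brain fatty acid binding protein, stood at 12.8, 10.9 and 14.5 against 30.2, 14.8 and 31.2 CPM. Cd36, a fatty acid receptor, stood at 0.265, 0.0851 and 0.820 against 3.59, 0.338 and 4.17 CPM, high in fish oil replicates 2 and 4 like Angpt1.

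Inflammatory and stress genes showed no common direction. Of 22 interferon response genes 10 were below 0, among them the interferon regulatory factor gene Irf7 at 1.19, 1.149 and 1.10 against 0.609, 0.845 and 0.614 CPM. In injured libraries 17 of 22 were below 0, and Irf7 stood at -0.84 (log2). In 12 of the 22 every fish oil injured library lay below every purified injured library, beside 5.98% of all genes. Of 13 tested cytokine and acute inflammation genes 9 were below 0, with Il1b at 0.727, 0.511 and 0.820 against 0.0761, 0.423 and 0.291 CPM. Of 20 unfolded protein and stress response genes 8 were below 0, with Xbp1 at -0.28 ± 0.12. The antioxidant gene Cat stood at 0.25 ± 0.11, the neuronal tubulin gene Tubb3 at 0.40 ± 0.15 and the precursor-cell gene C1ql1 at 1.45 ± 0.49. Of 13 mitochondrially encoded genes 9 were above 0, with a median of 0.065 (log2), which was -0.042 without purified sham replicate 3. The lowest of them, mt-Nd3, stood at 23.2, 35.1 and 49.0 against 26.2, 20.6 and 20.9 CPM, with overlap.

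**Figure D5:**
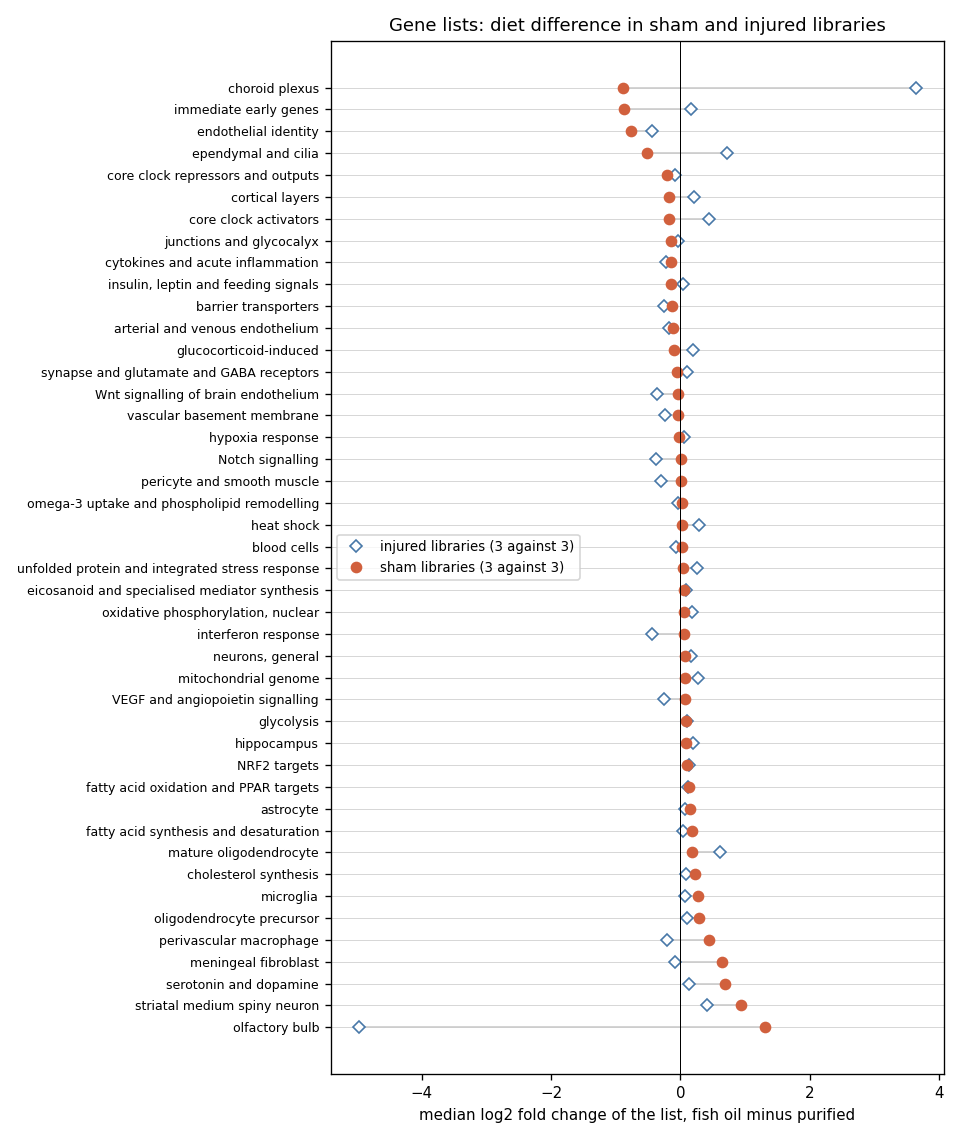
The median log2 fold change (fish oil minus purified) of each of the 44 gene lists is plotted for sham libraries (filled circles) and injured libraries (open diamonds), each 3 libraries against 3. Endothelial identity is below 0 in both, immediate early genes are below 0 in sham and above 0 in injured libraries, and choroid plexus and olfactory bulb markers have the widest gap between the 2.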

How the data were processed

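Total RNA of mouse cortex was sequenced in 12 libraries, 3 in each of 4 groups. The deposited table holds raw counts per gene, made by the authors with STAR 2.5.2a and featureCounts 1.4.3-p1 on mm10, per the submitters' processing notes. Annotation release and strand setting: not given in the sources used here. Values of 2 (20514) outnumber values of 1 (11222) in the table, as they would where both mates of a pair are counted, so counts were also halved as an alternative. Close paralogs and overlapping genes may share reads. Gene symbols and positions come from the GRCm38 annotation, which held 53274 of 53379 identifiers.

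The computations here used R 4.3.3. Genes passed edgeR 4.0.16's filter with a minimum count of 10, libraries were scaled by TMM, and the robust quasi-likelihood test was fitted to the 12 libraries with 4 group means. P-values were adjusted by Benjamini-Hochberg over 19252 genes, with a threshold of 0.05, and leave 8 residual degrees of freedom. CPM uses the TMM-scaled library sizes. Values after ± are SE. An exact permutation test of 3 against 3 cannot go below 0.1, so none is given. "Separate libraries" means that every library of one diet lay beyond every library of the other.

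Alternatives were other scalings, filters, sets of libraries and tools (DESeq2 1.42.0, limma-voom in limma 3.58.1), striatal and choroid plexus scores as covariates, and a replicate block. The procedure was tested on simulated data. Named genes are the 30 of smallest p with at least 1 CPM and, per list, up to 4 of smallest p and the one of highest level, with any member of the vascular, clock and immediate early lists. The gene lists and the comparison were chosen with earlier results of these data known. Promoter windows are RefSeq's, and genes without an entry were not searched. Differences in counts between replicates of a group were 32.6 to 167 times sampling noise (chi-square per degree of freedom), so no library is a copy of another in its group. Libraries of different groups were not compared in this way.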

Additional observations from a re-analysis of the deposited data

Results flagged for a closer look

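In 3 of the 131 genes named by the rule, every fish oil library lay below every purified library in sham mice. In injured mice every fish oil library lay above every purified library in these 3. Over all 19252 tested genes 77 showed opposite separations, counting this order and the reverse order together. Plin4, the lipid droplet coat gene, stood at 5.47, 4.92 and 9.21 CPM in purified sham and 2.83, 1.94 and 1.86 CPM in fish oil sham libraries. In injured libraries it stood at 2.86, 1.28 and 2.90 against 4.09, 4.30 and 5.70 CPM. The diet difference in sham minus injured libraries was -2.56 ± 0.49 (SE, log2), with an edgeR adjusted p of 0.820 over all tested genes.

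Dnah6, a dynein of motile cilia on the ependymal list, stood at 6.55, 2.45 and 1.71 against 0.799, 1.21 and 1.10 CPM in sham and at 1.42, 0.897 and 2.56 against 4.03, 4.42 and 9.08 CPM in injured libraries, a difference of -3.63 ± 0.77. The coagulation factor gene F5, on the choroid plexus list, stood at 1.22, 9.88 and 2.00 against 1.08, 1.13 and 1.16 CPM in sham and at 0.847, 2.08 and 1.70 against 6.51, 47.6 and 49.7 CPM in injured libraries, a difference of -6.43 ± 1.23. Both had an edgeR adjusted p of 0.820. Choroid plexus markers summed to 327, 1030 and 366 CPM in purified and 294, 420 and 273 CPM in fish oil sham libraries. In injured libraries they summed to 315, 278 and 255 CPM on the purified diet and 688, 4371 and 4288 CPM on fish oil. Their part in F5 was not tested.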

How the results depend on the processing

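No gene was called between the diets in sham libraries by limma-voom on the same 19252 genes, or by edgeR under any alternative run: other scalings, no filter (32198 genes) or a minimum count of 50 (15311 genes), halved counts, the sham libraries alone, the 2 tissue scores as covariates, a threshold of 0.10, both libraries with striatal transcripts left out, and each sham library left out in turn (0 in each). DESeq2 called 17 genes in sham libraries (16 lower), 186 between the diets in injured libraries (137 lower) and 21 for the difference of these contrasts (20 lower). The cause of this gap between tools was not tested. Of 131 named genes 128 kept their direction under every alternative that gave them a value (14 for Lcn2, 16 for Il1b and Sox18, 17 for the others). With 1 sham library left out, the log2 fold change of Ttr ran from -2.90 to 0.822 (without purified sham replicate 3) and that of Drd2 from -2.994 (without fish oil sham replicate 2) to 5.96. That of Mfsd2a ran from -0.268 to 0.026 (without purified sham replicate 4) and was 0.082 without both libraries that carry striatal transcripts. Replicate numbers did not pair the sham libraries: the deviations of same-numbered libraries correlated at -0.223, 0.275 and -0.135, and 2 of 6 libraries correlated best with their own number. With the replicate block in the 6 sham libraries 0 genes were called and 1249 had an unadjusted p under 0.05, against 1427 without the block.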

Other observations

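Energy and antioxidant genes lay slightly above 0 in fish oil sham libraries. Of 20 glycolysis genes 16 were above 0, the median being 0.08 (log2), and 4 had every fish oil library above every purified library, beside 6.31% of all genes. With 1 sham library left out this median ran from 0.05 (without fish oil replicate 3) to 0.13 (without fish oil replicate 4). Targets of NRF2, the regulator of antioxidant genes, were above 0 in 15 of 20, with a median of 0.11, which was 0.03 without fish oil replicate 2, 0.05 without purified replicate 3 and 0.17 without purified replicate 4. Oligodendrocyte precursor genes were above 0 in 13 of 14, with a median of 0.29 and a range of 0.23 to 0.42 with 1 library left out. Astrocyte genes were above 0 in 16 of 20, with a median of 0.14, which was 0.08 without purified replicate 3 and 0.26 without purified replicate 4. These sizes compare with a median of 0.006 over all tested genes and an SD of 0.355 over the 14541 of at least 1 CPM, and no member of these lists passed the edgeR threshold.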
